A study of Mus musculus with 8 samples.

Results

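The genes described here are the enzymes that build cholesterol and long-chain fatty acids, with the proteins that control them through the SREBP transcription factors. They were chosen by name, with earlier results of these data known, and all 29 were found among the 54752 gene identifiers counted in each library. The mevalonate pathway gave 7 of them (*Acat2*, *Hmgcs1*, *Mvk*, *Pmvk*, *Mvd*, *Idi1* and *Fdps*) and the steps from squalene to cholesterol gave 11 (*Fdft1*, *Sqle*, *Lss*, *Cyp51*, *Tm7sf2*, *Msmo1*, *Nsdhl*, *Hsd17b7*, *Ebp*, *Sc5d* and *Dhcr7*). Control of SREBP and sterol transport gave 6 (*Srebf1*, *Srebf2*, *Scap*, *Insig1*, *Insig2* and *Stard4*), and fatty acid synthesis gave 5 (*Acly*, *Acaca*, *Fasn*, *Scd1* and *Scd2*).

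RNA was sequenced from brains of wild-type C57BL/6 mouse fetuses (C57BL/6Slac by the study's methods) at E15.5 (embryonic day), with 1 library per brain. The study's sample list names the tissue of these libraries as half_whole_brain, and which part was used is not stated. The stress group held 4 brains, those of F34 and F35 (female) and of M28 and M29 (male), from fetuses whose dam went through chronic unpredictable mild stress (CUMS), a changing series of mild stressors during pregnancy that ended the day before collection. The control group held 4 brains, those of F36 and F37 (female) and of M30 and M31 (male), from fetuses whose dam stayed in its home cage. The brains of each group came from 1 litter, so litter and stress cannot be told apart, and every p-value below rests on the spread among littermates. The comparison asks which genes of the fetal brain differ in RNA level after stress of the dam.

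Cholesterol is made from acetyl-CoA by way of mevalonate, the isoprenoid diphosphates, squalene and lanosterol, and the brain makes its own once the blood-brain barrier has formed, because plasma lipoproteins do not cross it. The SREBP proteins wait in the membrane of the endoplasmic reticulum, bound to SCAP. When sterol is low, SCAP carries them to the Golgi, where proteases release the part that enters the nucleus and binds sterol regulatory elements in the promoters of synthesis genes. When sterol is high, the INSIG proteins hold SCAP back. SREBP-2, from *Srebf2*, acts mainly on cholesterol genes and SREBP-1, from *Srebf1*, mainly on fatty acid genes.

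Promoter sequence is shown for the 4 genes called higher in stress that had the smallest p-values and a match to the sterol element, and for *Hmgcs1*, which was added after the values were seen because it held the 1 exact match. The letters searched on both strands were TCACNCCAC for the sterol element, CCAAT for the NF-Y site often found beside it, and CACGTG for an E-box. The window was the 250 bases before the outermost RefSeq start (GRCm38.p6, the mm10 build). Of the 29 genes, 23 had a window, and *Fdps*, *Fdft1*, *Sqle*, *Stard4*, *Scd1* and *Scd2* had none. None of the 8 called genes with a window held an exact sterol element, so a match with up to 1 mismatch was used. The called genes *Sqle*, *Stard4* and *Scd2* could not be searched. The sterol matches printed for *Insig1* and *Msmo1* lie inside an annotated exon. Capitals mark matches to any of the 3 motifs, on either strand.
Insig1, chr5:28071162-28071362, plus strand, upstream of the annotated exons: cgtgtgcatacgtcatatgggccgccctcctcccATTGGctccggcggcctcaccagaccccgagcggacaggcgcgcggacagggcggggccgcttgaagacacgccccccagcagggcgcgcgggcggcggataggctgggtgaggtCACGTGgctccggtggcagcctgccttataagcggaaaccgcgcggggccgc
Insig1, chr5:28071382-28071411, plus strand, 30 bases that hold the match to the sterol element: gggcgcggtacgtgtagtgtcGTGGCGTGT
Msmo1, chr8:64733651-64733680, minus strand, 30 bases around a match: cacggaCCAATCACTGCACggcgaaggcag
Hsd17b7, chr1:169969242-169969455, minus strand, upstream of the annotated exons: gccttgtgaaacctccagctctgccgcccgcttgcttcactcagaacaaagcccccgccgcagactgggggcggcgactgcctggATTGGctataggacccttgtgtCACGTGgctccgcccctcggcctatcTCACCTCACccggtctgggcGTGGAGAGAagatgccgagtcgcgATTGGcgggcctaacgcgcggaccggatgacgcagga
Cyp51, chr5:4104747-4104947, minus strand, upstream of the annotated exons: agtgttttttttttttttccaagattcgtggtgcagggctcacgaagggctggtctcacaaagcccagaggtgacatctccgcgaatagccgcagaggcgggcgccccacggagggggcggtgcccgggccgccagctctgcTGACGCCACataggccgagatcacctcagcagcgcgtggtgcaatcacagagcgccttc
Hmgcs1, chr13:119690101-119690350, plus strand, upstream of the annotated exons: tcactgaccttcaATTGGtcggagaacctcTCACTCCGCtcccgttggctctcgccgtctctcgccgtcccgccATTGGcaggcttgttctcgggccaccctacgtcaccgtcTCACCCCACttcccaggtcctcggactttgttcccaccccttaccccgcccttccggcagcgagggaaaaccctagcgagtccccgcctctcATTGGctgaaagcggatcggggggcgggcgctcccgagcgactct

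*Insig1* and *Hsd17b7* each held an E-box and a CCAAT motif in the printed stretch. In *Msmo1* the CCAAT motif and the sterol match shared 1 base. The exact sterol element was present in 1.03% of the windows of all 27025 genes with one, and in 0.966% of the 12321 tested genes with one. With up to 1 mismatch it was present in 9 of the 23 windows of these genes (39.1%), against 21.7% of the windows of tested genes. CCAAT was present in 18 of the 23 (78.3%), against 36.1%, and the E-box in 3 (13.0%), against 8.12%. Of the 8 called genes with a window, 4 held the sterol match, 7 held CCAAT and 2 held the E-box. These are counts of letters, and binding was not measured.

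The libraries held between 25320109 and 29105710 counts, and 17865 genes passed the filter on low counts, all 29 of these genes among them. Expression is given as CPM, the usual count scaled to a common library total (here by edgeR's TMM method), and compared between genes only as RPKM, which is CPM per kilobase of the gene's exons. The lowest count of any of the 29 genes in any brain was 274 (*Ebp*). *Xist* was counted between 30879 and 35294 times in the 4 females and at most 22 times in the males, as the sex labels give. The summed level of 8 neuronal markers was between 1458 and 1528 RPKM and that of 8 radial glia markers between 650.5 and 709.7 RPKM, whereas 4 mesenchyme markers summed to at most 4.68 RPKM, in stress M28, and 4 choroid plexus markers to at most 1.12 RPKM. The tissue is listed as half_whole_brain, and levels in single regions were not measured.

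The genes of the pathway were expressed at very different levels. *Scd2*, the main stearoyl-CoA desaturase of the developing brain, stood highest in the control brains at 192 ± 1.18 RPKM (SD, n = 4). *Hmgcs1*, the cytosolic HMG-CoA synthase, followed at 146 ± 3.92 RPKM, then *Acly*, which makes cytosolic acetyl-CoA from citrate, at 74.6 ± 1.05 RPKM, and *Acat2*, which joins a pair of acetyl-CoA molecules, at 60.4 ± 1.29 RPKM. These 4 genes held 48.9% of the summed RPKM of all 29.

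Below them came *Cyp51* (52.8 ± 0.432 RPKM), *Fasn* (50.6 ± 1.17 RPKM) and *Fdft1* (45.9 ± 1.003 RPKM). The lowest was *Fdps*, farnesyl diphosphate synthase, at 3.51 ± 0.175 RPKM, so the range was 54.7-fold. *Fdps* shares 26.7% of its exon bases with another listed gene, and read pairs that fit both genes could not be assigned, so its level and its difference are uncertain. *Tm7sf2* shares 47.2% with its neighbours (*Vps51* mainly), *Fdft1* 18.3% with *Ctsb*, *Scap* 13.2% and *Hmgcs1* 12.1%, and the same limit holds for them.

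Of the 28 neighbouring pairs in the order of control RPKM, 18 were apart by more than the sum of their SDs and 10 were not. The 10 included *Sqle* and *Srebf2*, *Pmvk* and *Mvd*, *Scap* and *Dhcr7*, and the run of *Tm7sf2*, *Stard4*, *Scd1*, *Ebp* and *Hsd17b7*. The exon length is the union over all annotated transcripts, 10787 bases for *Lss* and 17074 for *Acaca*, so RPKM understates a gene whose main transcript is much shorter.

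**Figure D1:**
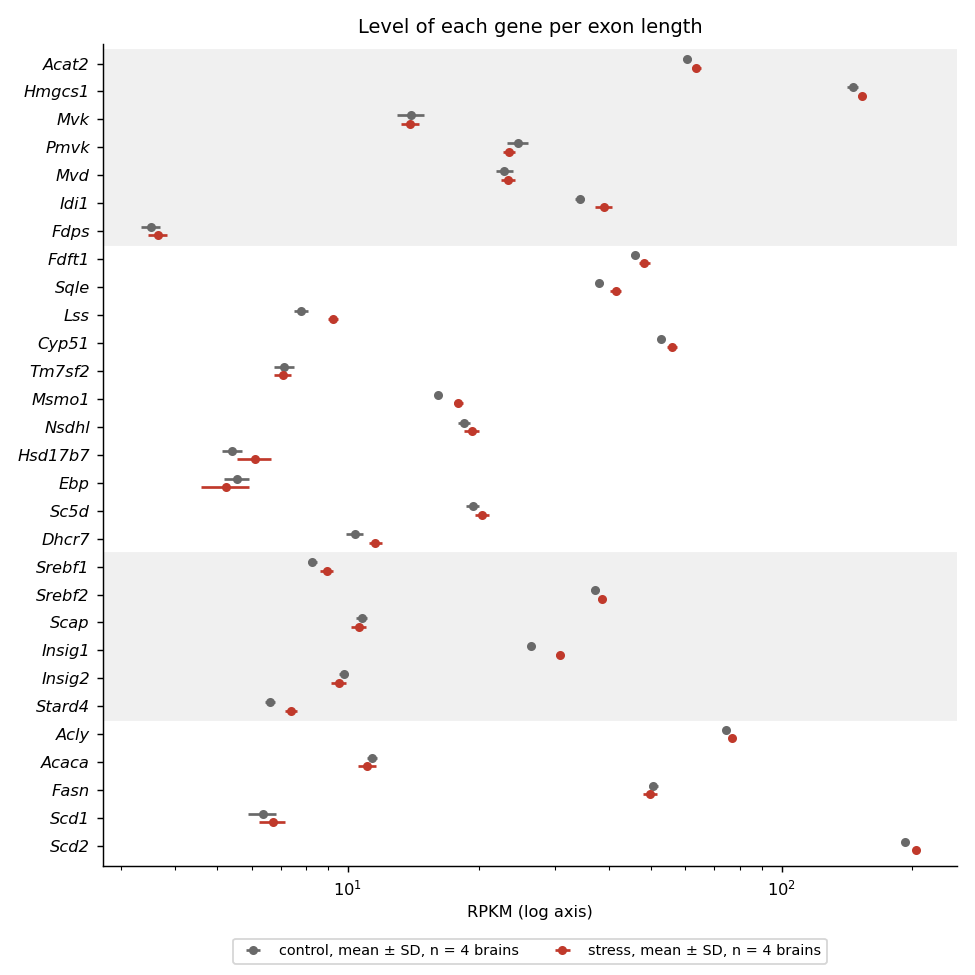
Level of each of the 29 genes in RPKM on a log axis, as mean ± SD of 4 control brains (grey) and 4 stressed brains (red), with the grey and white bands marking the 4 groups in the order mevalonate pathway, squalene to cholesterol, SREBP control and sterol transport, and fatty acid synthesis. The control levels run from 3.51 RPKM (*Fdps*) to 192 RPKM (*Scd2*), and the differences between the groups are small beside the differences between the genes.

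In the stressed brains, 11 of the 29 genes were called up-regulated and none down-regulated (edgeR's quasi-likelihood test with sex as covariate, Padj under 0.05). Among all 17865 genes tested, 6.49% were called higher and 7.27% lower. The 29 genes were chosen with earlier results of these data known, so setting them beside these shares is a description and not a test. The 11 were *Lss*, *Insig1*, *Idi1*, *Msmo1*, *Sqle*, *Dhcr7*, *Stard4*, *Scd2*, *Hsd17b7*, *Cyp51* and *Srebf1*, and they rose by between 6.01% and 18.5%. Without adjustment, 15 of the 29 genes had a p under 0.05 in the upward direction and 0 in the downward direction, against 13.2% and 13.7% of all genes tested. DESeq2 called 9 up and 0 down. The median Log2FC (stress vs. control) of the 29 genes was 0.07, against 0.00 over all genes tested. In RNA of a mixed tissue, a change in cell numbers and a change in RNA per cell cannot be told apart.

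In 11 of the 29 genes every stressed brain lay above every control brain, and in 0 did every stressed brain lie below. Over all genes tested these shares were 8.20% and 8.22%. The 11 were the called genes other than *Hsd17b7*, together with *Srebf2*. In each of these 11 the exact permutation test of mean log2 CPM gave p = 0.0286 (two-sided), the smallest possible with 4 against 4. Groups without overlap always give this p, so it adds nothing to the separation.

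**Figure D2:**
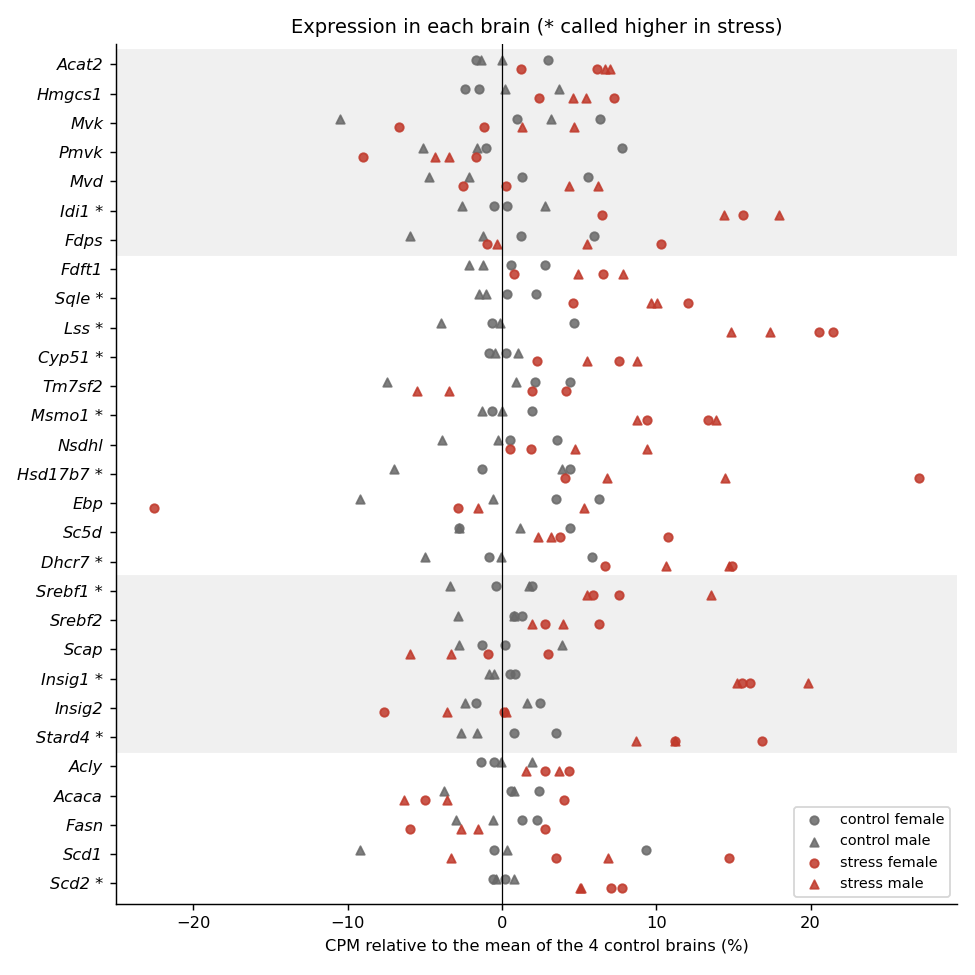
CPM of each gene in each of the 8 brains as a percentage above or below the mean of the 4 control brains, with control in grey, stress in red, females as circles and males as triangles, and the 4 groups of genes as bands. *Lss*, *Insig1* and *Idi1* show the stressed brains apart to the right, *Mvk*, *Tm7sf2* and *Fasn* show mixed groups, and the 2 widest points are *Hsd17b7* in stress F35 and *Ebp* in stress F34.

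In the mevalonate pathway 1 of 7 genes was called. *Idi1*, at chr13:8885501-8892451 on the plus strand, encodes the isomerase that turns isopentenyl diphosphate into dimethylallyl diphosphate. It gave 120.3, 119, 117 and 123 CPM in control F36, F37, M30 and M31, and 128, 139, 137 and 142 CPM in stress F34, F35, M28 and M29. The groups did not overlap, and stress F34 was the lowest of the stressed brains. The Log2FC was 0.18 ± 0.03 (SE, Padj = 2.7e-04). Of the 100-base stretches in its transcripts, 21.9% also occur in transcripts of other genes, so part of its reads may have had more than 1 place.

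The other 6 genes of the pathway were not called. *Acat2* had 151 to 158 CPM in the control brains and 156 to 164 CPM in the stressed brains, with a Log2FC of 0.07 ± 0.03 (Padj = 0.088), and 28.9% of its stretches occur in *Acat3* or *Tcp1*. *Hmgcs1* had 654 to 694 CPM against 685 to 718 CPM, also with a Log2FC of 0.07 ± 0.03 (Padj = 0.077). In both genes the highest control brain lay above the lowest stressed brain. *Acat2* passed the threshold when stress F34 was left out (Padj = 0.042), and *Hmgcs1* when control M31 was left out (Padj = 0.042).

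Then come a pair of kinases that phosphorylate mevalonate in turn and the decarboxylase after them. *Mvk* had a Log2FC of -0.0048 ± 0.049 (Padj = 0.97), *Pmvk* of -0.07 ± 0.04 (Padj = 0.33) and *Mvd* of 0.03 ± 0.04 (Padj = 0.69). *Fdps* had 13.9 to 15.7 CPM in the control brains and 14.6 to 16.3 CPM in the stressed brains, with a Log2FC of 0.05 ± 0.06 (Padj = 0.62). In all 4 of these genes the ranges of the groups overlapped.

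From squalene to cholesterol 6 of 11 genes were called. *Lss*, lanosterol synthase, closes squalene epoxide into the first sterol and lies at chr10:76531588-76557138 on the plus strand. It showed 83.6, 88.0, 80.8 and 84.0 CPM in control F36, F37, M30 and M31, and 101, 102, 96.6 and 98.7 CPM in stress F34, F35, M28 and M29. Every stressed brain exceeded the highest control brain, F37. The Log2FC of 0.25 ± 0.03 (Padj = 8.4e-06) was the largest of the 29.

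*Sqle*, squalene epoxidase, acts 1 step earlier and needs oxygen. It had 211, 215, 209 and 208 CPM in the control brains, in the order given above, and 220.4, 236, 231 and 232 CPM in the stressed brains. The groups were apart, with stress F34 nearest to the controls, and the Log2FC was 0.13 ± 0.03 (Padj = 0.0033). *Fdft1*, which makes squalene, was not called (189.7 to 199 CPM against 195 to 209 CPM, Log2FC 0.07 ± 0.03, Padj = 0.10), but passed the threshold without stress F34 (Padj = 0.032).

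After lanosterol come the enzymes that remove methyl groups from the sterol nucleus. *Cyp51*, the lanosterol 14-alpha-demethylase, had 234, 231, 232 and 235 CPM in the control brains and 238, 251, 246 and 253 CPM in the stressed brains. The groups were apart by a small gap between control M31 and stress F34, and the Log2FC was 0.08 ± 0.03 (Padj = 0.036). *Msmo1*, the C4 methyl sterol oxidase, had 98.5, 101, 99.1 and 97.8 CPM in the control brains and 108, 112, 108 and 113 CPM in the stressed brains.

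For *Msmo1* the gap between the groups was wider than the range within either group, and the Log2FC was 0.15 ± 0.03 (Padj = 7.8e-04). *Hsd17b7*, the 3-keto sterol reductase of the same C4 complex, was the called gene whose groups overlapped. It had 27.2, 28.8, 25.6 and 28.6 CPM in the control brains and 28.7, 35.001, 29.4 and 31.5 CPM in the stressed brains. Stress F34 lay below control F37, and the Log2FC was 0.18 ± 0.05 (Padj = 0.030). *Nsdhl*, the third enzyme of that complex, which lies on chromosome X, was not called (50.7 to 54.7 CPM against 53.1 to 57.8 CPM, Log2FC 0.06 ± 0.04, Padj = 0.34).

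*Dhcr7*, which reduces 7-dehydrocholesterol to cholesterol in the last step of the Kandutsch-Russell branch, was also called. It had 63.8, 59.8, 60.2 and 57.2 CPM in the control brains and 64.3, 69.2, 69.1 and 66.7 CPM in the stressed brains. Stress F34 was only just above control F36, and the Log2FC was 0.16 ± 0.04 (Padj = 0.0044). The other late enzymes were not called. *Sc5d*, the lathosterol oxidase, had a Log2FC of 0.07 ± 0.03 (Padj = 0.16), *Tm7sf2*, a C14 sterol reductase, of -0.01 ± 0.04 (Padj = 0.91) and *Ebp*, the delta8-delta7 isomerase on chromosome X, of -0.08 ± 0.08 (Padj = 0.57).

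**Figure D3:**
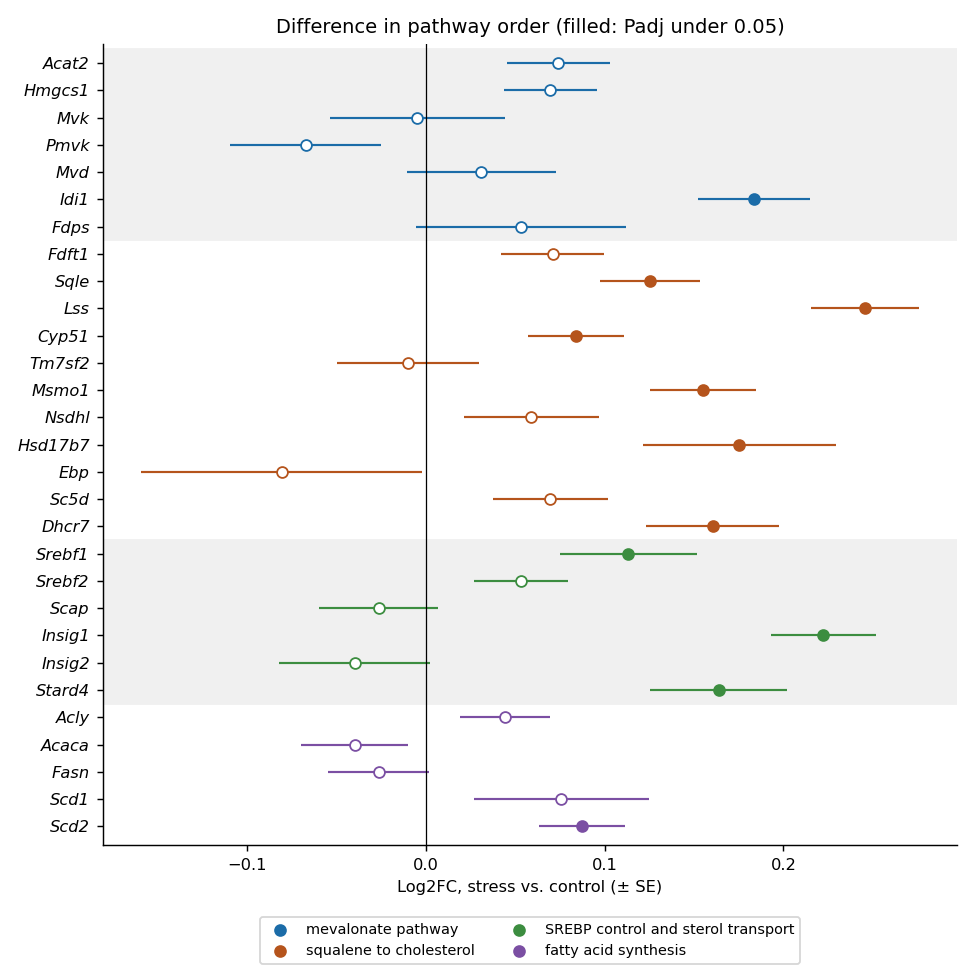
Log2FC (stress vs. control) ± SE of each gene in pathway order from the fit over 4 stressed and 4 control brains, with filled points for Padj under 0.05 and colours for the 4 groups. The filled points lie between 0.08 (*Cyp51*) and 0.25 (*Lss*), 8 open points lie below 0, and the first 5 genes of the mevalonate pathway are all open.

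Of the 6 genes of SREBP control and sterol transport, 3 were called. *Insig1*, which retains SCAP in the endoplasmic reticulum and is itself an SREBP target, lies at chr5:28071363-28078662 on the plus strand. It gave 82.1, 82.3, 81.0 and 81.2 CPM in the control brains and 94.8, 94.4, 94.1 and 97.8 CPM in the stressed brains. The control brains were close together, and all stressed brains lay well above them. The Log2FC was 0.22 ± 0.03 (Padj = 1.9e-05). Its paralogue *Insig2*, which is not known as an SREBP target, had 33.2 to 34.8 CPM against 31.4 to 34.1 CPM and a Log2FC of -0.04 ± 0.04 (Padj = 0.60).

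*Stard4*, a soluble carrier of cholesterol between membranes, had 38.2, 37.2, 35.9 and 36.3 CPM in the control brains and 43.2, 41.1, 40.1 and 41.1 CPM in the stressed brains. The groups were apart and the Log2FC was 0.16 ± 0.04 (Padj = 0.0048). *Srebf1* had 47.5, 46.4, 47.4 and 45.0 CPM against 50.1, 49.4, 52.9 and 49.2 CPM, with no overlap. Its Log2FC of 0.11 ± 0.04 stood just inside the threshold (Padj = 0.047). *Srebf2* was also higher in each stressed brain (272 to 283 CPM) than in each control brain (259 to 270.1 CPM), but it was not called (Log2FC 0.05 ± 0.03, Padj = 0.195). *Scap* had a Log2FC of -0.03 ± 0.03 (Padj = 0.67).

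In fatty acid synthesis 1 of 5 genes was called. *Scd2* had 1042, 1051, 1044 and 1056 CPM in the control brains and 1122, 1130, 1102 and 1101 CPM in the stressed brains, where both females stood above both males. The groups were apart and the Log2FC was 0.09 ± 0.02 (Padj = 0.016). *Scd1*, its paralogue with the same reaction, had 6.35 ± 0.481 RPKM in the control brains where *Scd2* had 192 ± 1.18 RPKM. It gave 27.9 to 33.6 CPM against 29.7 to 35.2 CPM and was not called (Log2FC 0.08 ± 0.05, Padj = 0.35).

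The enzymes that make the fatty acid itself were not called. *Acly* had a Log2FC of 0.04 ± 0.03 (Padj = 0.27). *Acaca*, acetyl-CoA carboxylase, which commits acetyl-CoA to fatty acids, had -0.04 ± 0.03 (Padj = 0.44), and 23.7% of its transcript stretches occur in other listed genes. *Fasn*, fatty acid synthase, had 537 to 566 CPM against 521 to 569 CPM and a Log2FC of -0.03 ± 0.03 (Padj = 0.60). The *Fasn* ranges overlapped over nearly their whole width.

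Of the 11 calls, 7 held whichever brain was left out (*Lss*, *Insig1*, *Idi1*, *Msmo1*, *Sqle*, *Dhcr7* and *Stard4*). *Srebf1* was not called in any of these 8 fits (Padj between 0.051 and 0.19) nor by DESeq2 (Padj = 0.12). *Cyp51* was called only without stress F34 (Padj = 0.020), and its Padj was 0.056 to 0.14 without any other brain. *Hsd17b7* was called in 3 of the 8 fits and lost its call without control F36, F37 or M30 or stress M29 (Padj 0.051 to 0.13), or stress F35, without which its Log2FC was 0.11 (Padj = 0.16). DESeq2 gave it Padj = 0.069. *Scd2* lost its call without control F36 (Padj = 0.061), F37 (0.061) or M30 (0.056).

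The summed levels of the 4 groups were higher in the stressed brains, as a description without a test. The genes from squalene to cholesterol summed to 223.8 to 229.9 RPKM in the control brains and 234.2 to 247.8 RPKM in the stressed brains. SREBP control and sterol transport summed to 97.2 to 100.2 RPKM against 104.7 to 106.8 RPKM. Fatty acid synthesis summed to 333.3 to 336.3 RPKM against 343.7 to 354.0 RPKM, of which *Scd2* is the larger part. The mevalonate pathway summed to 301.0 to 309.4 RPKM against 309.9 to 324.5 RPKM, where stress F34 was only just above control F36. The ratio of group means was between 1.04 and 1.07 for each of the 4 groups.

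Of 60 tested genes in 6 neighbouring lists, 2 were called up and 2 down, which is 3.33% each way. Of all genes tested 6.49% were called higher and 7.27% lower, and these shares stand beside each list below. The isoprenoid branches that leave the pathway after *Fdps* (prenyl transferases and the enzymes of ubiquinone and dolichol) had 0 of 8 called, with 2 at an unadjusted p under 0.05, where the share of all genes tested was 26.9%, and 0 called by DESeq2. The proteins that cleave SREBP or turn over INSIG had 1 of 8 called. This was *Mbtps1*, the site-1 protease, with 113, 116, 114 and 107 CPM against 125, 115, 123 and 121 CPM and a Log2FC of 0.11 ± 0.03 (Padj = 0.029). Its groups overlapped because stress F35 lay below control F37, and the call was kept in only 2 of the 8 fits with a brain left out. The electron donors of the sterol and fatty acid oxidases had 0 of 5 called, with 1 at an unadjusted p under 0.05 and 0 by DESeq2.

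Among 20 genes of fatty acid supply, elongation and desaturation, 1 was called, and it was lower. *Fads3*, a desaturase of sphingoid bases, had 34.9, 34.5, 33.3 and 32.9 CPM in the control brains and 27.6, 28.96, 29.4 and 24.8 CPM in the stressed brains, a Log2FC of -0.29 ± 0.05 (Padj = 1.6e-04) with no overlap. Cholesterol export and storage under LXR had 1 of 10 called, also lower. *Abcg4*, a sterol transporter expressed in the brain, had 56.5, 50.9, 53.1 and 51.7 CPM against 50.1, 48.1, 46.2 and 41.7 CPM (Log2FC -0.19 ± 0.04, Padj = 0.0037). In that list 9 of the 10 genes had a Log2FC below 0, and the median was -0.07.

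Fatty acid oxidation, the opposite process, had 1 of 9 tested genes called. *Hadha*, the alpha subunit of the mitochondrial trifunctional protein, had 81.3, 80.8, 80.6 and 80.9 CPM against 87.9, 84.2, 89.0 and 88.4 CPM (Log2FC 0.11 ± 0.03, Padj = 0.014), without overlap. *Ppara* did not pass the filter on low counts (at most 22 counts). In fatty acid oxidation 5 genes had an unadjusted p under 0.05, 3 upward and 2 downward. Of all genes tested 26.9% had such a p. The medians of the 6 lists ran from -0.07 (cholesterol export and storage) to 0.07 (fatty acid oxidation) on the log2 scale. The median of the 29 genes was also 0.07.

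**Figure D4:**
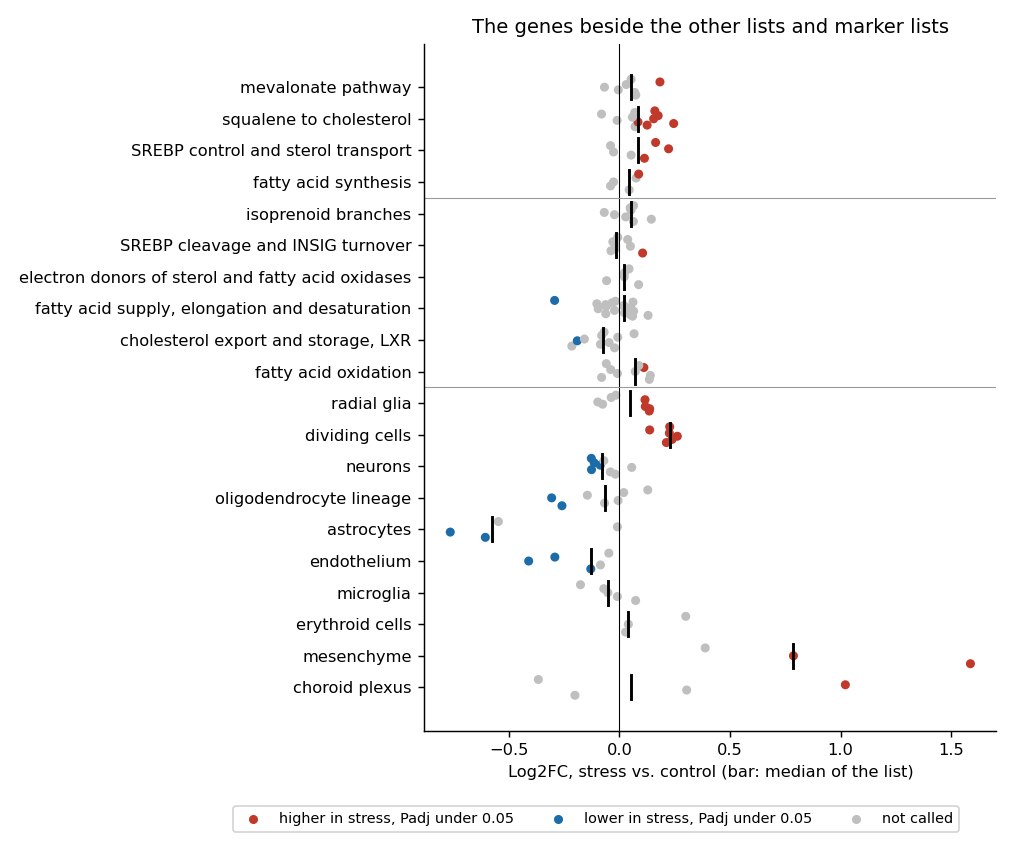
Log2FC (stress vs. control) of every tested gene in the 4 groups of synthesis genes (top), the 6 neighbouring lists (middle) and 10 cell type marker lists (bottom), with red for genes called higher, blue for genes called lower, grey for genes not called and a black bar for the median of each list. All 6 markers of dividing cells are red, with a median of 0.23, and no synthesis gene is blue.

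Markers of cell types moved between the same groups of brains. All 6 markers of dividing cells were called higher, and each of these 6 had no overlap between groups. Of all genes tested 6.49% were called higher and 7.27% lower, and 8.20% had every stressed brain above every control brain. The same shares stand beside the marker counts that follow. Their summed level was 99.7 to 105.9 RPKM in the control brains and 110.8 to 125.0 RPKM in the stressed brains. *Ccnb1* had the largest Log2FC of them at 0.26 ± 0.04 (Padj = 1.3e-04), then *Top2a* at 0.24 ± 0.03 (Padj = 1.5e-05) and *Mcm2* at 0.23 ± 0.04 (Padj = 3.6e-04). The medians were 0.23 for these markers and 0.07 for the synthesis genes.

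Of 8 radial glia markers, 4 were called higher and 0 lower, with *Nes*, *Pax6* and *Vim* the largest at 0.14 ± 0.04, 0.14 ± 0.03 and 0.12 ± 0.03. The other 4 had a Log2FC below 0, down to -0.10, and the median of the list was 0.05. Their summed level was 650.7 to 683.6 RPKM in the control brains and 650.5 to 709.7 RPKM in the stressed brains. Of 8 neuronal markers, 4 were called lower, led by *Rbfox3* at -0.13 ± 0.03, *Snap25* at -0.13 ± 0.04 and *Syt1* at -0.11 ± 0.03, and 1 of the 8 had a Log2FC above 0 (median -0.08). The neuronal sum was 1484 to 1528 RPKM against 1458 to 1496 RPKM.

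No marker of later glia or of vessels was called higher. In the oligodendrocyte lineage 2 of 7 were called (*Pdgfra* at -0.31 ± 0.05 and *Olig1* at -0.26 ± 0.04), with a sum of 44.8 to 48.6 RPKM against 41.2 to 44.1 RPKM. The Log2FC of the 7 ran from -0.31 to 0.13 with a median of -0.07, and 2 of them were above 0. Among astrocyte markers 2 of 4 were called (*Gfap* at -0.76 ± 0.22 and *Aqp4* at -0.61 ± 0.10), with a sum of 12.7 to 13.9 RPKM against 11.5 to 12.95 RPKM. In endothelium 3 of 5 were called (*Flt1* at -0.41 ± 0.06, *Kdr* at -0.29 ± 0.04 and *Cldn5* at -0.13 ± 0.04), with a sum of 41.1 to 43.3 RPKM against 36.5 to 39.4 RPKM.

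Microglia (5 markers) and erythroid cells (3 markers) had 0 called, with 0 and 1 at an unadjusted p under 0.05 and 0 by DESeq2. Their sums were 13.3 to 15.3 RPKM against 12.5 to 14.7 RPKM, and 5.44 to 6.36 RPKM against 5.80 to 6.79 RPKM. Among mesenchyme markers 2 of 3 tested were called higher (*Col1a1* at 1.59 ± 0.39 and *Col1a2* at 0.79 ± 0.21), with a sum of 0.828 to 2.01 RPKM against 1.17 to 4.68 RPKM, highest in stress M28. Among choroid plexus markers 1 of 4 was called higher (*Kcne2* at 1.02 ± 0.34), with at most 24 counts in a brain and a sum of 0.540 to 0.902 RPKM against 0.506 to 1.12 RPKM. DESeq2 did not call *Nes*, *Snap25*, *Gfap*, *Cldn5*, *Col1a1*, *Col1a2* or *Kcne2*, so its counts were 3 of 8 higher in radial glia, 3 of 8 lower in neurons, 1 of 4 lower in astrocytes, 2 of 5 lower in endothelium, and 0 in mesenchyme and choroid plexus. Without stress M28, 9 of the 29 synthesis genes were called higher and 0 lower. Over the fits with 1 brain left out the number called higher was 7 to 12. Such a fit does not separate cell types. The part of these cell types in the difference of the synthesis genes was not tested.

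No synthesis gene was called between the sexes. Over all genes tested 0.0896% were called, 16 of 17865. Of the 29 genes 2 had an unadjusted p under 0.05 (5.91% of all genes tested) and 0 were called by DESeq2, and the Log2FC (female vs. male) lay between -0.04 and 0.11. *Nsdhl* and *Ebp*, the genes on chromosome X, had -0.01 and -0.04.

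The difference between stressed and control brains was then taken within each sex, 2 brains against 2. All 11 genes called over these same brains were higher in stress in both sexes, with a Log2FC between 0.07 and 0.24 in males and between 0.07 and 0.25 in females. In the 10 of them whose groups did not overlap, this direction follows from the separation and adds nothing to it. *Lss* had 0.24 ± 0.04 in males and 0.25 ± 0.04 in females. *Insig1* had 0.24 ± 0.04 and 0.20 ± 0.04. *Dhcr7* had 0.21 ± 0.05 in males and 0.11 ± 0.05 in females.

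The test of the difference between the sexes (stress by sex interaction) called 0 of the 29 genes, against 0.00560% of all genes tested, which is 1 gene. Without adjustment 3 of the 29 had a p under 0.05 (6.31% of all genes tested), and DESeq2 gave 0 such genes and 0 calls. The 3 were *Ebp*, with a Log2FC of 0.10 ± 0.10 in males and -0.27 ± 0.10 in females (interaction Padj = 0.68), *Mvd*, with 0.12 ± 0.05 and -0.06 ± 0.05 (Padj = 0.69), and *Mvk*, with 0.10 ± 0.06 and -0.11 ± 0.06 (Padj = 0.74), all from edgeR's quasi-likelihood test. For *Ebp* both stressed females (F34 9.91 and F35 12.4 CPM) lay below both control females (F36 13.6 and F37 13.2 CPM). Stress F34 lay lowest, where the other 7 brains had 11.6 to 13.6 CPM.

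**Figure D5:**
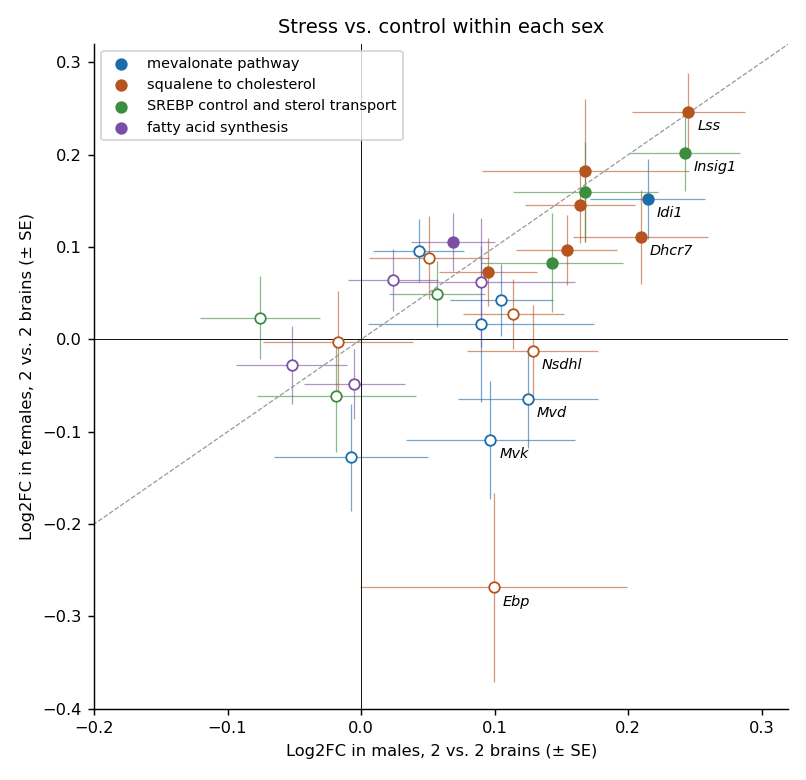
Log2FC (stress vs. control) ± SE of each gene in males (horizontal axis) against females (vertical axis), 2 brains against 2 in each, with filled points for the 11 genes called over all 8 brains and a dashed line where both sexes would be equal. All filled points lie above 0 on both axes, and *Ebp*, *Mvd* and *Mvk* lie above 0 in males and below 0 in females.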

How the data were processed

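The authors trimmed paired reads of oligo(dT)-selected RNA with Trim Galore, aligned them to mm10 with TopHat2 2.1.1 and assigned read pairs to exons of GENCODE genes with featureCounts 1.6.3. They deposited raw counts per gene and brain, with no normalization. The options given for featureCounts set nothing for strand, overlapping genes or reads with several places, so such genes are marked as uncertain. Batch was a term of the study's model but is not given for these 8 libraries.

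Genes were kept with edgeR 4.0.16's filterByExpr (minimum count 10, by group), normalized by TMM and tested by glmQLFit and glmQLFTest with sex and condition in the model (R 4.3.3). The p-values were adjusted by Benjamini-Hochberg over all 17865 genes, and Padj under 0.05 was a call. The SE is the Log2FC divided by the square root of F. Log2 CPM for the exact tests used a prior count of 2. The fit was tested on simulated counts. Alternatives were DESeq2 1.42.0, median-of-ratios size factors, no filter, no sex covariate and each brain left out.

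Groups came from the sample labels. Symbols were matched for 54723 of 54752 identifiers without their version. Stretches of 100 bases of each transcript were looked up in the transcripts of other genes, and promoter windows came from RefSeq. All 29 synthesis genes are named. From each other list the called genes were counted, and the 3 with the largest Log2FC in size were named. The genes, lists and alternatives were chosen with earlier results of these data known. No other genome sequence and no protein sequence was used here.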

Additional observations from a re-analysis of the deposited data

Results flagged for a closer look

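In each gene the highest and lowest of the 4 brains of a group were compared with the other 3 by Dixon's test at its 95% critical value. Of 58 groups tested 3 had such a brain, and chance alone marks about 1 group in 20. *Acat2* was low in stress F34 (156 CPM, the other stressed brains 163 to 164). *Sc5d* was high in stress F35 (105 CPM, the others 96.7 to 98.0). *Srebf2* was low in control M31 (259 CPM, the others 269 to 270.1). None of these 3 genes was called between stress and control, and what sets these brains apart was not tested.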

How the results depend on the processing

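The direction of all 11 calls was kept in every alternative. The number of synthesis genes called higher was 11 with median-of-ratios size factors, 9 without a filter or with DESeq2, 8 without the sex covariate, and 7 to 12 with 1 brain left out, lowest without control F36, F37 or M30. The number called lower was 0 in each. Over all genes, DESeq2 called 748 higher, and leaving out a brain gave 736 to 1057 higher and 854 to 1308 lower, lowest without stress M29. In the neighbouring lists it gave 0 to 3 higher (0 without stress M28) and 2 to 4 lower (4 without stress F35). No synthesis gene was called between the sexes in the alternatives with a sex term, and none for the interaction with DESeq2, median-of-ratios size factors or no filter, the alternatives run for it.

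With 1 brain left out, the Log2FC of 5 uncalled genes below 0 changed sign. That of *Mvk* ran from -0.065 to 0.029 and was above 0 without control F36, F37 or M30 or stress F34 or F35. *Tm7sf2* ran from -0.033 to 0.014 and *Scap* from -0.049 to 0.00088, both above 0 without control M30. *Ebp* ran from -0.14 to 0.017 (without stress F34) and *Fasn* from -0.049 to 0.0010 (without stress F35). The cause of these changes was not tested. The median of all genes stayed within 0.004 of 0 on the log2 scale. No paired analysis was possible because the groups share no replicate numbers.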
